A study of Homo sapiens with 22 samples.

Results

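Interferon-stimulated genes are the genes that cells switch on when type I, type II or type III interferon binds its receptor, and 39 of them were followed here across 22 RNA libraries of human neuroblastoma cell lines. The 39 were taken from a fixed list of symbols, and each was matched to its row among the 63677 Ensembl genes of the deposited tables. They comprise 2 RNA sensors, 4 transcription factors, 9 RNA-binding or RNA-degrading effectors, 2 GTPases, 5 membrane or entry and release factors, 5 genes of ISG15 conjugation and 12 others. The series asked what transcripts 003 and 004 of CASC15, a long noncoding RNA gene at a neuroblastoma susceptibility locus, do in these cells.

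All 20 SH-SY5Y libraries came from stable lines made with lentiviral shRNA particles and selected with puromycin, the controls included, so no library shows SH-SY5Y cells without a viral vector. The control lines carried a scrambled shRNA, sh003 lines carried sh1 or sh2 against CASC15-003, and sh004 lines carried sh1 or sh2 against CASC15-004. Each line was sequenced at day 0 in medium with serum, or at day 7 of differentiation with retinoic acid, labelled 10 mM. No monolayer library was taken at day 7 without retinoic acid, so retinoic acid and time in culture cannot be told apart. At day 0 there were 3 control libraries, 3 of sh003 and 2 of sh004. Day 7 had 2 control libraries, 3 of sh003 and 2 of sh004. Of these, 4 libraries came from batch 1, 9 from batch 2 and 2 from batch 3, and both batch 3 libraries were at day 0. Spheres, grown in sphere-forming medium, gave 1 control, 2 sh003 and 2 sh004 libraries. KELLY, a line with amplified MYCN, was sequenced once after a control siRNA and once after a siRNA against SOX9, so it has no replicates. Nothing in the labels says that libraries of a group came from separate cultures, and each p-value measures no more than how these libraries scatter.

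As background, type I interferon acts through IFNAR1 and IFNAR2, the kinases JAK1 and TYK2, and a complex with STAT2 and IRF9 that binds the interferon-stimulated response element (ISRE). Type II interferon acts through IFNGR1 and IFNGR2, and its signal reaches the gamma-activated site (GAS) and induces IRF1. Several of these genes are also transcribed at a basal level without added interferon, and retinoic acid has long been known to raise some of them.

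Library totals of recovered reads ran from 11884895 to 37938767 in monolayers and from 27769606 to 62075189 in spheres, and were 25471924 and 24003701 in KELLY. CASC15, the targeted gene, was at 1.31 to 3.33 RPKM (reads scaled by gene length and library total) in control monolayers, 1.57 to 3.38 in sh003 and 1.14 to 1.48 in sh004. These values sum all CASC15 isoforms and do not tell transcripts 003 and 004 apart. Against the control of the same batch and day, the total was lower in all 4 sh004 libraries. It was higher in 4 of the 6 sh003 libraries. The other sh003 values were 2.08 RPKM in sh1 batch 2 day 7, against 3.26, and 3.27 in sh2 batch 1 day 7, against 3.33. Spheres had 2.15 RPKM in control, 1.63 and 2.46 in sh003 sh1 and sh2, and 1.59 and 1.60 in sh004. The total therefore shows no uniform lowering in sh003 cells. SOX9 was at 5.61 RPKM in KELLY with control siRNA and 0.974 with SOX9 siRNA. The neuroblast marker PHOX2A stood between 206 and 536 RPKM in every monolayer library, while the summed level of 7 leukocyte markers was 0.4 to 0.9 RPKM and the T cell marker CD3E was at 0 reads in all 15. The retinoic acid target CYP26A1 was at 0 to 0.27 RPKM at day 0 and 9.001 to 687 at day 7, with sh004 sh2 the lowest at day 7. The differentiation tags of 2 sh003 libraries go against their titles, and CYP26A1 followed the titles, which were used. In bulk RNA, fewer expressing cells and less RNA per cell cannot be told apart.

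The shRNA target sequences in the labels show that sh1 and sh2 of each target are different reagents.
sh003 sh1: ctagcactgacctccttcatt
sh003 sh2: ctttccatcagccaacaatat
sh004 sh1: caggctgttcccagggattta
sh004 sh2: taggaataccttacatccaat

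A RefSeq promoter (GRCh38.p14) was found for 31 of the 39 genes, and the 250 bases before each start were searched on both strands for 2 motifs. The ISRE-like letters (GAAA, any 2 bases, GAAA) were present before 24 of 40 starts (60%), in 21 of the 31 genes, against 3.02% of 35116 starts of all genes. The GAS-like letters (TTC, any 3 bases, GAA) were present before 27.5% of the members' starts, in 10 genes, against 6.57% of all starts. Among members with a promoter, the ISRE-like letters were found in 12 of the 21 that passed the monolayer expression filter described below and in 9 of the 10 that did not. A match to these letters is a description of sequence and not evidence of binding. Windows are printed on the gene's strand with the matched letters, or their reverse complement, in capitals, for genes that the results turn on and for OAS3 and IFI44L, which carried matches but stayed under the filter.
IFI6, chr1:27672261-27672363 (-): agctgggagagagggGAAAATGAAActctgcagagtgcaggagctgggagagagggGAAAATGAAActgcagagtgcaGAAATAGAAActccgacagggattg
IFI44, chr1:78649756-78649788 (+): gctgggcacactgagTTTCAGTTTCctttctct
IFITM3, chr11:320885-320914 (-): agGAAAAGGAAActgttgaGAAACCGAAAc
BST2, chr19:17405738-17405767 (-): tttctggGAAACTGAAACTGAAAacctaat
PARP9, chr3:122564322-122564351 (-): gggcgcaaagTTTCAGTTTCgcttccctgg
OAS3, chr12:112938321-112938350 (+): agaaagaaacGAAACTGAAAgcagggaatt
IFI44L, chr1:78620274-78620303 (+): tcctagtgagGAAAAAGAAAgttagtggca
IRF1, GAS-like, chr5:132490874-132490912 (-): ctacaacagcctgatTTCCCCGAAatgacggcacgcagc
IRF9, GAS-like, chr14:24161191-24161220 (+): gaccacgtgatTTCTGGGAAaaggccctcc
IFI6 had 3 ISRE-like matches, of which a pair lies in a repeated stretch, and BST2 had 2 that overlap. No match of either kind was found before the starts of STAT2, UBE2L6, HERC6, SAMD9L or DDX58, which says only that these letters are not in those windows.

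In SH-SY5Y monolayers the interferon-stimulated genes were expressed unevenly. A gene passed the filter when it reached 1 RPKM in at least 2 of the 15 libraries, and 25 of the 39 members did. Of these, 10 were at 1 RPKM or above in every library: STAT2, IRF7, IFIT5, IFITM2, UBE2L6, HERC5, HERC6, USP18, IFI6 and SAMD9. The other 15 passed through some libraries only, so the 25 are the detected members and do not stand for the whole list. Among these 15, OAS1, IFIT1, IFIT3 and IFI35 reached 1 RPKM in knockdown libraries only, and RSAD2 passed only with their help. All of them also needed day 7 libraries to pass. Counts of members higher in knockdown than in control libraries, or at day 7 than at day 0, can include them.

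The most abundant members per length were IFI6, a mitochondrial protein, with a median of 24.7 RPKM, UBE2L6, the E2 enzyme of ISG15 conjugation, at 21.9, IFITM2, which blocks virus entry in endosomes, at 18.5, and STAT2 at 17.4. Next came IRF7, the amplifier of type I interferon genes, with a median of 9.39 RPKM, IFITM3 at 5.06 and HERC5, the main E3 ligase for ISG15, at 4.78. The ranges of IFI6, UBE2L6, IFITM2 and STAT2 overlap, so their order is not resolved between libraries.

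Many members that are classical readouts of a strong interferon response were close to undetected. Neither GTPase passed the filter: MX1 reached at most 0.134 RPKM and MX2 0.0902. OAS2 and OAS3, which make the 2-5A activator of RNase L, reached 0.0451 and 0.128 RPKM. The remaining members under the filter were IFIH1 (highest value 0.921 RPKM), OASL, IFIT2, ISG20, IFITM1, IFI44L, IFI27, XAF1, EPSTI1 and PARP14. Their highest values differed: ISG20 came just under the filter at 0.978 RPKM and IFI27 reached 0.782, while IFI44L reached 0.350 and EPSTI1 0.0646. The RNA-binding effectors IFIT1, IFIT3 and OAS1 passed through a few libraries, with highest values of 2.12, 1.57 and 2.10 RPKM.

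**Figure D1:**
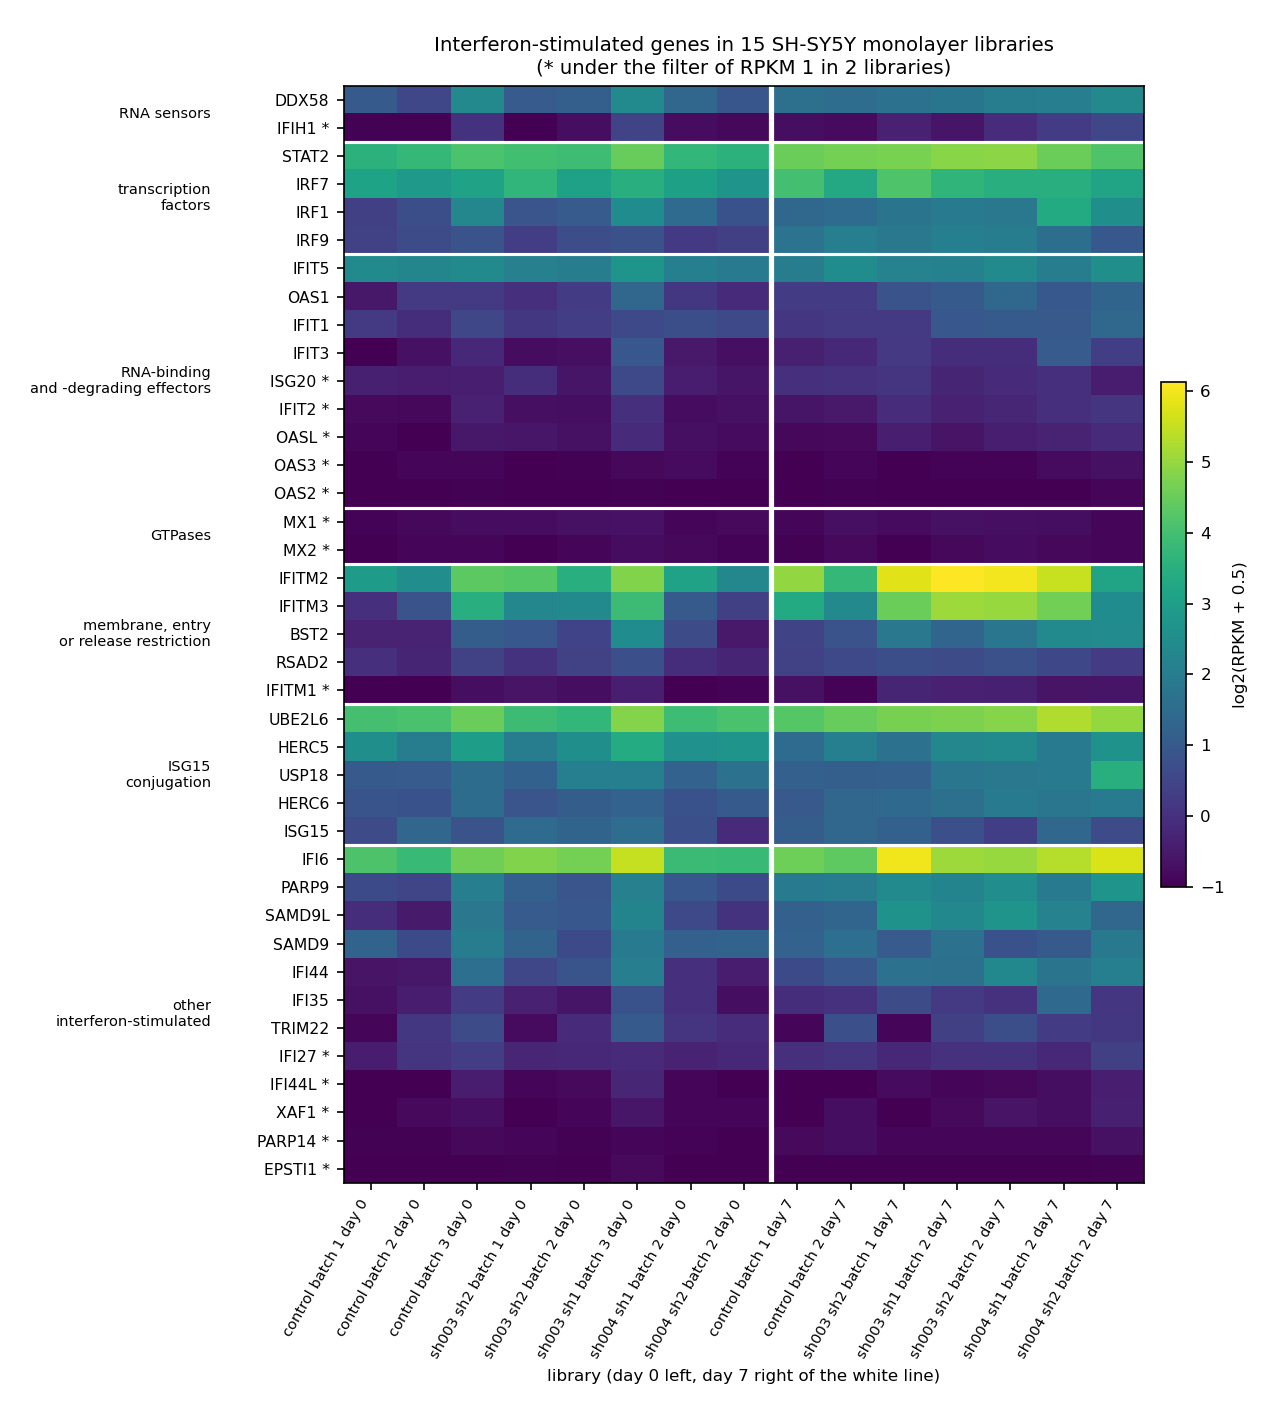
Level of the 39 interferon-stimulated genes, as log2(RPKM + 0.5), in the 15 monolayer libraries (columns, day 0 on the left and day 7 on the right), with genes ordered by role in rows and an asterisk for the 14 under the filter. The asterisked rows are dark throughout, and the 2 batch 3 libraries at day 0 are brighter than the other day 0 columns in most rows.

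Batch 3 stood apart at day 0. The control library of batch 3 was above both other control libraries of day 0 in 22 of the 25 members, where 34.3% of all genes tested were, with IRF7, OAS1 and ISG15 the exceptions. The sh003 sh1 library of batch 3 was above both other sh003 libraries of day 0 in 23 of 25, where 40.2% of all genes were, with IRF7 and USP18 the exceptions. TNFAIP3, a negative regulator induced by NF-kappaB, was at 6.25 and 9.72 RPKM in these 2 libraries and at 0.0125 to 1.95 in the other day 0 libraries. Its part in the members' levels was not tested. Batch 3 has no day 7 and no sh004 library. Its sh003 library is the only day 0 library of sh003 made with sh1, so batch and shRNA cannot be told apart there.

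The genes upstream of the members were taken from fixed lists. Of 10 interferon ligand genes, 8 had 0 reads in all 15 monolayer libraries, IFNB1 and IFNG among them, while IFNK reached 0.37 RPKM and IFNW1 0.05. All 6 receptor genes passed the filter, as did JAK1, JAK2, TYK2, STAT3, IRF2, IRF3 and IRF5. Of 13 nucleic acid sensing genes 6 passed, and the row matched to the kinase gene IKBKE had 0 reads throughout. Its ID was matched without an hg19 annotation, so this is not read as absence of its RNA. Of 7 negative regulators 6 passed.

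After 7 days of retinoic acid, every change of a member that passed the test was a rise. With limma on log2(RPKM + 0.5), fitted on all 19461 genes past the filter, IRF9, the DNA-binding partner of STAT2, was the single member called at an adjusted p under 0.05 in control cells (1 of 25, where 0.956% of all genes were called) and in sh003 cells (1 of 25, against 2.35%). IRF9 rose by 1.27 ± 0.25 (SE) on the log2 scale in control cells (limma adjusted p = 0.0407) and by 1.39 ± 0.22 in sh003 cells (adjusted p = 0.0101). In sh004 cells no member was called without the batch term (0 of 25, against 0.38% of all genes; 13 members had an unadjusted p under 0.05, as had 8.23% of all genes, and voom on recovered reads also called 0).

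Deviations from group means in control and sh003 libraries set batch 1 apart but did not separate batches 2 and 3. Batch was taken to pair libraries, and the same model was fitted with batch as a block. It called 6 members in control cells (7.68% of all genes), 12 in sh003 cells (14.3%) and 10 in sh004 cells (2.11%), all of them higher at day 7. The median log2 change over the 25 members was 0.64 in control, 0.72 in sh003 and 1.12 in sh004 cells, beside 0.10, 0.07 and 0.02 over all genes tested. STAT2, IRF9, IFI44 and PARP9 were called in all 3 kinds of line. The 3 comparisons share no libraries, but they come from a single fit with a shared spread and shared batch terms, so the calls are not independent. Scaling by median ratios in place of read totals lowered the median of all genes by 0.126 in control and 0.107 in sh003 cells, and the members' medians then were 0.54 and 0.65. The control count was 0 without the control day 7 library of batch 1 or of batch 2, 2 without the control day 0 library of batch 1 or of batch 2, 3 without sh003 sh2 batch 1 day 7, and 11 without either sh004 day 7 library. The sh003 count was 2, 5 and 7 without sh003 sh2 batch 2 day 0, sh003 sh2 batch 1 day 7 and sh003 sh2 batch 1 day 0. The sh004 count was 1 without sh004 sh2 day 0, 4 without sh004 sh1 day 0, and 6 without control batch 1 day 0, control batch 1 day 7, control batch 2 day 7, sh003 sh1 batch 2 day 7 or either batch 1 library of sh003 sh2. Leaving out both batch 3 libraries, the fit without the batch term called 2 members in control, 5 in sh003 and 6 in sh004 cells.

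**Figure D2:**
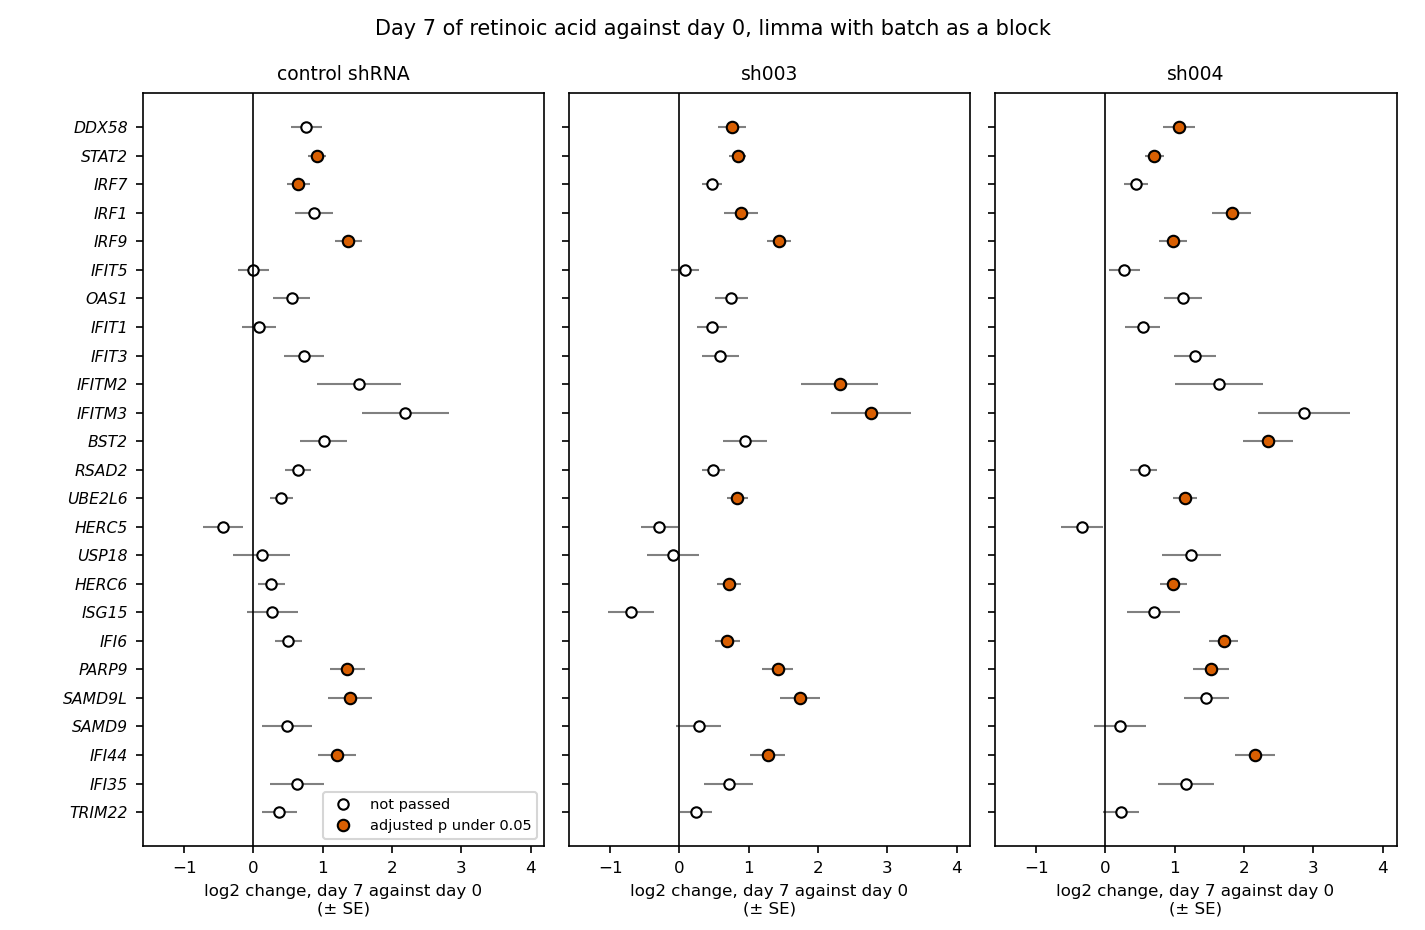
Log2 change of the 25 detected members from day 0 to day 7 (horizontal axis, limma with batch as block, bars are the SE) in control, sh003 and sh004 lines, with filled points for an adjusted p under 0.05. All filled points lie right of 0, 6 in control, 12 in sh003 and 10 in sh004 lines.

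Of the 7 day 7 libraries, 6 have a day 0 library of their own line and batch, and the members' median was higher at day 7 in each of these pairs. In control cells 7 members were higher by 1 or more on the log2 scale in batch 1 (8.82% of all genes) and 8 in batch 2 (6.6%). The sh2 line of sh003 had 7 such members in batch 1 (8.49%) and 9 in batch 2 (9.11%). In batch 2 the sh1 line of sh004 had 11 (6.66%) and the sh2 line also 11 (5.3%). The members' median difference in these 6 pairs was 0.62, 0.58, 0.78, 0.85, 0.97 and 0.92. In control batch 1, HERC5 was lower by 1 or more, and in the other 5 pairs no member was. Without pairing, every day 7 library was above every day 0 library in 4 members in control cells (17.7% of all genes), 7 in sh003 cells (14.9%) and 21 in sh004 cells (20.9%). The sh004 groups hold no batch 3 library. OAS1, IFIT1, IFIT3, IFI35 and RSAD2 met the filter only with day 7 libraries. All of these are among the 21, and OAS1 is among the 4. OAS1, IFIT3 and IFI35 are also in counts of the pairs. Their separation by day is not read as a result.

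In the values that follow, control day 0 is given for batches 1, 2 and 3 and control day 7 for batches 1 and 2. The sh003 values run sh2 batch 1, sh2 batch 2 and sh1 batch 3 at day 0, and sh2 batch 1, sh2 batch 2 and sh1 batch 2 at day 7. The sh004 values run sh1 and sh2, both of batch 2. Log2 changes with their SE come from limma with the batch block.

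Among the transcription factors, IRF9 was at 0.821, 1.04 and 1.26 RPKM in control cells at day 0 and at 2.80 and 3.66 at day 7. In sh003 cells IRF9 was at 0.740, 1.11 and 1.22 at day 0 and at 3.12, 3.51 and 3.72 at day 7. In sh004 cells IRF9 was at 0.662 and 0.786 at day 0 and at 2.47 and 1.44 at day 7. All 7 day 7 libraries were above all 8 day 0 libraries, batch 3 included, and sh004 sh2 was the lowest at day 7. IRF9 rose by 1.37 ± 0.19, 1.44 ± 0.18 and 0.97 ± 0.20 in control, sh003 and sh004 cells (limma adjusted p = 0.00494, 0.00193 and 0.0397). IRF9 shares 43.6% of its 50-base stretches with other genes, among them the read-through gene AL136295.5 on the same strand, so part of its reads cannot be assigned with certainty.

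STAT2, the partner of IRF9 that activates transcription, was at 11.5, 13.1 and 16.8 RPKM in control cells at day 0 and at 22.4 and 24.5 at day 7. In sh003 cells STAT2 went from 15.3, 14.5 and 21.6 at day 0 to 25.2, 29.1 and 28.7 at day 7. In sh004 cells the values were 12.6 and 11.4 at day 0 and 22.7 and 17.4 at day 7. Day 7 lay above day 0 in each kind of line with no overlap. STAT2 rose by 0.92 ± 0.13, 0.84 ± 0.12 and 0.71 ± 0.14 (adjusted p = 0.00603, 0.00384 and 0.0356).

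IRF1, a factor induced through GAS sites that activates antigen presentation and antiviral genes, was at 0.766, 1.14 and 4.42 RPKM in control cells at day 0 and at 2.13 and 2.33 at day 7. In sh003 cells IRF1 was at 1.35, 1.56 and 5.03 at day 0 and at 2.88, 3.09 and 3.29 at day 7. In sh004 cells IRF1 was at 2.31 and 1.22 at day 0 and at 9.80 and 5.36 at day 7. The batch 3 day 0 libraries were above every day 7 library of their own kind of line, whereas the sh004 groups did not overlap and the sh004 day 7 libraries were the highest of all. IRF1 rose in sh003 cells by 0.89 ± 0.25 (adjusted p = 0.0393) and in sh004 cells by 1.82 ± 0.28 (adjusted p = 0.0110), and the change in control cells was 0.88 ± 0.27 (adjusted p = 0.0738). IRF1 overlaps exons of C5orf56 on the other strand, and the strand setting of the counting is not given in the sources used here.

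IRF7 was at 8.36, 6.71 and 8.08 RPKM in control cells at day 0 and at 15.4 and 9.39 at day 7. Its sh003 values were 12.5, 8.003 and 10.7 at day 0 and 17.4, 10.5 and 12.3 at day 7. Its sh004 values were 7.84 and 6.02 at day 0 and 10.7 and 8.46 at day 7. The batch 1 libraries were the highest at day 7, the sh003 groups overlapped, and the control and sh004 groups did not. IRF7 rose in control cells by 0.65 ± 0.16 (adjusted p = 0.0405) and had changes of 0.47 ± 0.15 in sh003 (adjusted p = 0.0600) and 0.44 ± 0.17 in sh004 cells (adjusted p = 0.229).

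Of the RNA sensors, DDX58, which encodes RIG-I, was at 1.51, 0.944 and 4.66 RPKM in control cells at day 0 and at 2.59 and 2.41 at day 7. In sh003 cells DDX58 was at 1.58, 1.74 and 4.80 at day 0 and at 2.64, 3.54 and 2.94 at day 7. In sh004 cells DDX58 was at 2.07 and 1.38 at day 0 and at 3.61 and 4.599 at day 7. The 2 batch 3 libraries held the highest values of all 15. DDX58 rose in sh003 cells by 0.76 ± 0.20 (adjusted p = 0.0347) and in sh004 cells by 1.06 ± 0.23 (adjusted p = 0.0497), with 0.76 ± 0.22 in control cells (adjusted p = 0.0620). IFIH1, which encodes MDA5, stayed under the filter, and its 2 highest values were 0.921 RPKM in sh004 sh2 day 7 and 0.870 in the sh003 library of batch 3.

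The RNA-binding and RNA-degrading effectors gave no calls at day 7: 4 of the 9 passed the filter and 0 of 4 were called by limma with the batch block in any kind of line, with medians of 0.31, 0.53 and 0.83 in control, sh003 and sh004 cells. At an unadjusted p under 0.05 these were IFIT3 in control cells and OAS1 and IFIT3 in sh003 and sh004 cells. Both genes needed day 7 libraries to pass the filter. IFIT5, which binds RNA 5' ends, stayed between 3.36 and 5.91 RPKM over all 15 libraries.

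Among the membrane factors, IFITM3, which restricts virus entry at endosomes, had the widest range. Its control values were 0.499, 1.28 and 10.5 RPKM at day 0, against 9.70 and 4.67 at day 7. Its sh003 values were 4.47, 4.68 and 14.3 at day 0 and 22.8, 32.0 and 33.2 at day 7. Its sh004 values were 1.52 and 0.778 at day 0 and 24.2 and 5.06 at day 7. All 3 sh003 libraries of day 7 were above the other sh003 libraries and above both control day 7 libraries, and the sh004 day 7 libraries were far apart. IFITM3 rose in sh003 cells by 2.77 ± 0.58 (adjusted p = 0.0148), with 2.19 ± 0.63 in control (adjusted p = 0.0602) and 2.87 ± 0.66 in sh004 cells (adjusted p = 0.0595).

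IFITM2, its neighbour and close relative, was at 7.15, 5.14 and 19.7 RPKM in control cells at day 0 and at 31.02 and 12.9 at day 7. In sh003 cells IFITM2 was at 18.5, 10.8 and 26.8 at day 0 and at 55.6, 63.9 and 69.8 at day 7. In sh004 cells IFITM2 was at 8.13 and 4.46 at day 0 and at 45.5 and 8.52 at day 7. Those of sh003 at day 7 were the highest of all, and, as for IFITM3, the 2 sh004 lines lay far apart at day 7. IFITM2 rose in sh003 cells by 2.31 ± 0.56 (adjusted p = 0.0242), with 1.52 ± 0.61 in control (adjusted p = 0.142) and 1.64 ± 0.64 in sh004 cells (adjusted p = 0.236). The IFITM genes share sequence, with 34.1% of 50-base stretches of IFITM2 and 17.4% of IFITM3 found in other genes, the other IFITM genes among them, and IFITM3 overlaps exons on the other strand, so reads cannot be assigned between them with certainty.

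BST2, or tetherin, which holds budding virus at the cell surface, was at 0.301, 0.309 and 1.63 RPKM in control cells at day 0 and at 0.872 and 1.27 at day 7. In sh003 cells BST2 was at 1.40, 0.850 and 5.01 at day 0 and at 3.15, 2.99 and 2.02 at day 7. In sh004 cells BST2 was at 1.09 and 0.197 at day 0 and at 4.83 and 4.89 at day 7. The sh004 groups did not overlap, and the batch 3 sh003 library was the highest of all 15. BST2 rose in sh004 cells by 2.35 ± 0.36 (adjusted p = 0.0102), with 1.02 ± 0.34 in control (adjusted p = 0.0938) and 0.95 ± 0.31 in sh003 cells (adjusted p = 0.0692).

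In the ISG15 conjugation group, UBE2L6 was at 15.8, 16.6 and 22.1 RPKM in control cells at day 0 and at 18.5 and 21.9 at day 7. In sh003 cells UBE2L6 was at 14.4, 12.7 and 27.5 at day 0 and at 25.0, 28.3 and 26.1 at day 7. In sh004 cells UBE2L6 was at 14.7 and 16.4 at day 0 and at 38.7 and 31.5 at day 7. The sh004 day 7 libraries were the highest of all, and the control groups overlapped. UBE2L6 rose in sh003 cells by 0.84 ± 0.15 (adjusted p = 0.00868) and in sh004 cells by 1.14 ± 0.17 (adjusted p = 0.00994), with 0.40 ± 0.17 in control cells (adjusted p = 0.154).

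HERC6, a relative of the ISG15 ligase HERC5, was at 1.32, 1.24 and 2.35 RPKM in control cells at day 0 and at 1.48 and 2.03 at day 7. Its sh003 values were 1.34, 1.65 and 1.85 at day 0 and 2.21, 3.37 and 2.59 at day 7, and those of sh004 were 1.24 and 1.51 at day 0 and 2.98 and 3.42 at day 7. Between days the sh003 and sh004 groups did not overlap, and the control groups did. HERC6 rose in sh003 cells by 0.72 ± 0.17 (adjusted p = 0.0254) and in sh004 cells by 0.98 ± 0.20 (adjusted p = 0.0381), with 0.26 ± 0.19 in control cells (adjusted p = 0.404).

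Other genes of the conjugation group did not follow. ISG15, the ubiquitin-like modifier itself, stayed between 0.427 and 2.41 RPKM, with day 7 log2 changes of 0.27, -0.70 and 0.70 in control, sh003 and sh004 cells, none past the test. HERC5 had changes of -0.44, -0.29 and -0.34, also none past the test. USP18, which removes ISG15 and dampens receptor signalling, was at 1.54 to 3.74 RPKM in 14 libraries and at 10.7 in sh004 sh2 day 7. USP18 shares 23.4% of its 50-base stretches with other genes, USP41 among them, and ISG15 overlaps exons of AL645608.3 on the other strand.

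Among the remaining members, IFI6 was at 17.02, 13.8 and 23.4 RPKM in control cells at day 0 and at 23.1 and 19.9 at day 7. In sh003 cells IFI6 was at 27.003, 24.7 and 44.7 at day 0 and at 62.3, 32.4 and 33.8 at day 7. In sh004 cells IFI6 was at 14.1 and 13.4 at day 0 and at 39.8 and 52.7 at day 7. All 3 sh003 day 0 libraries were above all control day 0 libraries, and all 5 sh003 and sh004 libraries of day 7 were above every control library. IFI6 rose from day 0 to day 7 in sh003 cells by 0.69 ± 0.18 (adjusted p = 0.0308) and in sh004 cells by 1.70 ± 0.20 (adjusted p = 0.00356), with 0.50 ± 0.19 in control cells (adjusted p = 0.130).

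IFI44, a member of a GTP-binding-like family, was at 0.150, 0.191 and 2.57 RPKM in control cells at day 0 and at 1.02 and 1.41 at day 7. In sh003 cells IFI44 was at 0.943, 1.32 and 3.66 at day 0 and at 2.67, 4.54 and 2.60 at day 7. In sh004 cells IFI44 was at 0.474 and 0.237 at day 0 and at 2.88 and 3.71 at day 7. Batch 3 held the highest day 0 value in both lines that it contains, and the sh004 groups did not overlap. IFI44 rose in all 3 kinds of line, by 1.21 ± 0.28, 1.27 ± 0.25 and 2.15 ± 0.29 (adjusted p = 0.0316, 0.0122 and 0.00556).

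PARP9, which acts with the ligase DTX3L, was at 1.02, 0.90 and 3.61 RPKM in control cells at day 0 and at 3.27 and 3.57 at day 7. In sh003 cells PARP9 was at 1.78, 1.34 and 3.85 at day 0 and at 4.74, 5.18 and 4.18 at day 7. In sh004 cells PARP9 was at 1.41 and 1.03 at day 0 and at 3.23 and 5.93 at day 7. Within each kind of line, the single overlap between days was the batch 3 control library. PARP9 rose by 1.36 ± 0.25, 1.42 ± 0.23 and 1.52 ± 0.26 (adjusted p = 0.0142, 0.00547 and 0.0182), and it overlaps exons of DTX3L on the other strand.

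SAMD9L, an antiviral and growth-restricting factor, was at 0.460, 0.216 and 3.07 RPKM in control cells at day 0 and at 1.80 and 2.03 at day 7. In sh003 cells SAMD9L was at 1.58, 1.42 and 4.16 at day 0 and at 5.84, 6.00 and 4.54 at day 7. In sh004 cells SAMD9L was at 0.986 and 0.526 at day 0 and at 4.00 and 2.05 at day 7. The highest of the 15 values were those of sh003 at day 7. SAMD9L rose in control cells by 1.39 ± 0.31 (adjusted p = 0.0300) and in sh003 cells by 1.74 ± 0.29 (adjusted p = 0.00635), with 1.46 ± 0.33 in sh004 cells (adjusted p = 0.0537).

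IFI35, which forms a cytokine-regulated complex with NMI, was low in monolayers. It was at 0.128, 0.223 and 0.689 RPKM in control cells at day 0 and at 0.462 and 0.516 at day 7. Its sh003 values were 0.293, 0.161 and 1.25 at day 0 and 1.08, 0.511 and 0.652 at day 7, and those of sh004 were 0.491 and 0.0979 at day 0 and 2.23 and 0.591 at day 7. The highest library was sh004 sh1 day 7, and no monolayer comparison of IFI35 passed the test.

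**Figure D3:**
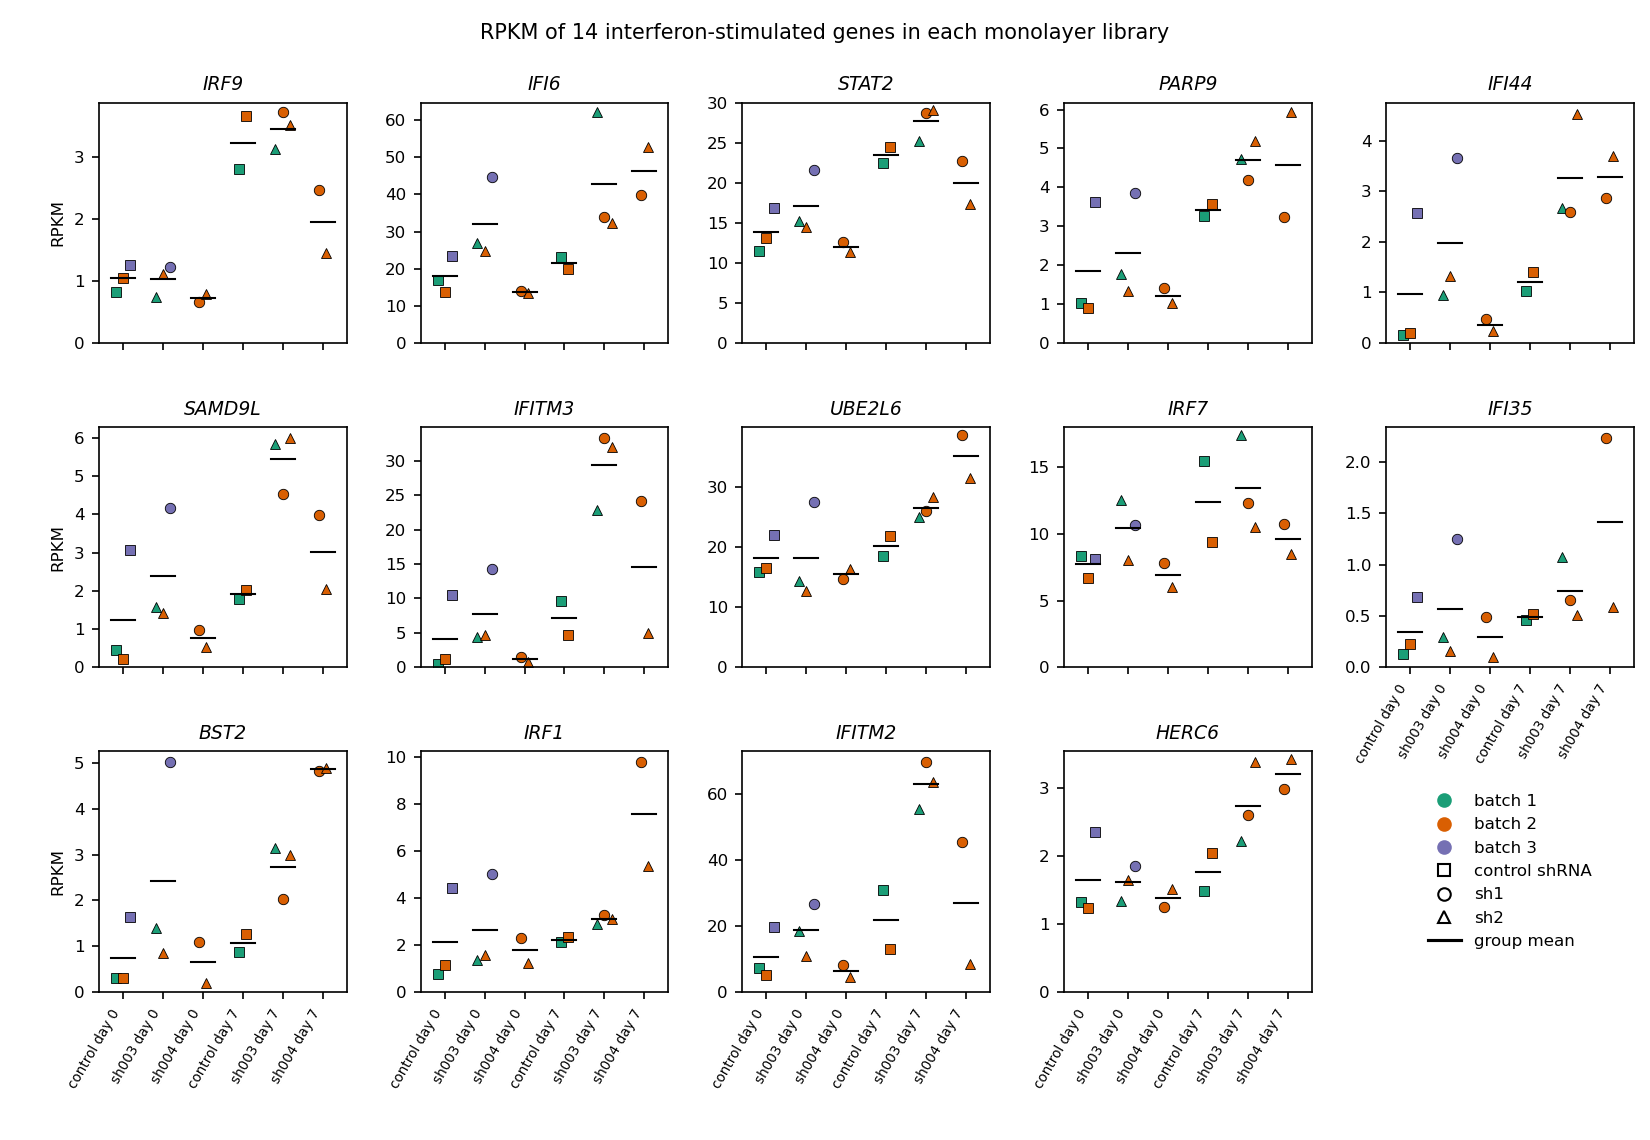
RPKM of 14 named members in each of the 15 monolayer libraries by group (horizontal axis), with colour for batch, marker shape for the shRNA and a line at each group mean. IRF9 separates day 7 from day 0 in every library, while the batch 3 points of IRF1, IFI44 and SAMD9L lie among or above the day 7 points of control cells.

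Of the upstream genes, limma called none at day 7 without the batch term. With it, STAT3, which answers cytokines of the interleukin 6 family, rose in control cells by 1.47 ± 0.38 (adjusted p = 0.0439) and in sh003 cells by 1.60 ± 0.34 (adjusted p = 0.0163). SOCS3, the feedback inhibitor that STAT3 induces, rose by 2.41 ± 0.63 (adjusted p = 0.0456) and 3.19 ± 0.57 (adjusted p = 0.00841) in the same lines. IL10RB, the shared receptor chain of type III interferon and interleukin 10, rose by 1.12 ± 0.23 (adjusted p = 0.0236) and 1.33 ± 0.21 (adjusted p = 0.00549). In sh003 cells IFNAR2 rose by 0.70 ± 0.17 (adjusted p = 0.0267) and IRF2 by 0.67 ± 0.17 (adjusted p = 0.0277). In sh004 cells TNFAIP3 rose by 2.30 ± 0.50 (adjusted p = 0.0490), TRIM21 by 0.74 ± 0.16 (adjusted p = 0.0454) and IFNGR2 by 0.59 ± 0.11 (adjusted p = 0.0283).

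At day 0, neither sh003 nor sh004 gave a member past the test. Against control, sh003 had 0 of 25 called by limma without the batch term (0.00514% of all genes) and 0 with it (0.252%), and voom also called 0 in both. The fitted value was higher in sh003 for 21 of 25 members with a median of 0.35, beside -0.06 over all genes, and 1 member without and 9 with the batch block had an unadjusted p under 0.05, as had 5.78% and 12.1% of all genes. With the block, 1 member was called when either sh004 day 7 library was left out. IFI6 had a difference of 0.80 ± 0.17 (adjusted p = 0.102) and IFI44 of 1.00 ± 0.23 (adjusted p = 0.131), both with the batch block. Only IFI6 was higher in every sh003 than in every control library, where 3.91% of all genes were. Within batches, the sh003 library was above the control library of its batch in 20 members in batch 1, 18 in batch 2 and 22 in batch 3, with medians of 0.34, 0.33 and 0.38, where 35.2%, 36.7% and 51.2% of all genes were higher.

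For sh004 at day 0, limma called 0 of 25 members without and with the batch block (0.0% of all genes in both), with 0 at an unadjusted p under 0.05 (1.94% and 3.69% of all genes) and none called by voom. The fitted value was higher in 7 members with a median of -0.16 without the batch term and in 17 with a median of 0.13 with it, so the direction of the list turned with the block. Against the batch 2 control library, sh004 sh1 was higher in 18 members with a median of 0.20 and sh004 sh2 in 10 with a median of -0.01, where 47.4% and 42.7% of all genes were higher. The same batch 2 control libraries serve the sh003 and the sh004 comparisons.

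At day 7, the sh003 and sh004 lines again gave no member past the test against control with all libraries in the fit. For sh003 limma called 0 of 25 without the block (0.0% of all genes) and 0 with it (0.00514%), 2 and 9 members had an unadjusted p under 0.05 (7.22% and 14.5% of all genes), and voom called 0. With the block, 4 members were called when either sh004 day 7 library was left out. The fitted value was higher in 22 of 25 members without the block, with a median of 0.38, and in 21 with it, with a median of 0.36. Every sh003 library was above every control library in 15 members, where 9.16% of all genes were. The largest of these differences with the block was 1.999 ± 0.607 for IFITM3 (adjusted p = 0.197), followed among the named members by IFITM2 at 1.70 ± 0.58 (adjusted p = 0.237), SAMD9L at 1.32 ± 0.30 (adjusted p = 0.135), IFI44 at 1.06 ± 0.26 (adjusted p = 0.151) and BST2 at 1.05 ± 0.33 (adjusted p = 0.207). IFI6 differed by 0.99 ± 0.19 (adjusted p = 0.109). Of the 15 members, OAS1, IFIT3 and RSAD2 met the filter only with knockdown libraries, so their separation from control is not read as a result. Within batches, sh003 sh2 was above control in 22 members in batch 1 and 19 in batch 2, and sh003 sh1 in 22 in batch 2, with medians of 0.36, 0.36 and 0.25, where 40.2%, 41.8% and 41.5% of all genes were higher.

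For sh004 at day 7, limma called 0 of 25 members without the block (0.0% of all genes) and 0 with it (0.226%), while 8 and 12 had an unadjusted p under 0.05 (8.04% and 13.5% of all genes) and voom called 0. With the block, 3 members were called without sh004 sh1 day 7, and 1 without sh004 sh2 day 7, either sh004 day 0 library or sh003 sh2 batch 1 day 7. The median was 0.61 in both fits, with 19 of 25 higher, beside -0.15 and -0.09 over all genes. Every sh004 library was above both control libraries in 13 members (10.8% of all genes). Of the 13, OAS1, IFIT1, IFIT3 and IFI35 met the filter only with knockdown libraries, so their separation from control is not read as a result. With the block, IFI6 differed by 1.29 ± 0.21 (adjusted p = 0.0527), BST2 by 1.84 ± 0.38 (adjusted p = 0.105), IRF1 by 1.42 ± 0.30 (adjusted p = 0.112) and USP18 by 1.33 ± 0.45 (adjusted p = 0.268). Scaling by median ratios with the block raised the median of all genes by 0.1003 and called 1 member. Against the batch 2 control, sh004 sh1 was higher in 16 members and sh004 sh2 in 18, with medians of 0.71 and 0.52, where 40.9% and 36.1% of all genes were higher.

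TNFAIP3 passed that comparison. It was at 0.0389 and 0.0799 RPKM in the 2 control libraries of day 7, at 0.254, 0.0646 and 0.0549 in sh003, and at 6.95 and 4.35 in sh004. Both sh004 libraries were above all others of day 7, and TNFAIP3 was higher in sh004 than in control by 3.53 ± 0.53 (adjusted p = 0.0345) and lower in sh003 than in sh004 by 3.35 ± 0.47 (adjusted p = 0.0208), with the batch block.

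Whether the change from day 0 to day 7 differed between lines was tested as an interaction. For sh003 minus control, limma called 0 of 25 members without and with the block (0.0% of all genes in both), and 0 had an unadjusted p under 0.05 (1.46% and 3.76% of all genes). For sh004 minus control, it called 0 without the block (0.0% of all genes) and 0 with it (0.0103%), 3 and 6 had an unadjusted p under 0.05 (1.46% and 4.36% of all genes), and the median difference in response was 0.62 and 0.42. Voom called 0 members in each. The larger number of calls in sh003 and sh004 lines at day 7 is therefore not shown to be a larger response than in control lines.

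Between sh003 and sh004, limma called 0 of 25 members at day 0, without the block (0.00514% of all genes) or with it (0.00514%), with 4 members at an unadjusted p under 0.05 in each fit (7.24% and 6.45% of all genes). At day 7 it called 0 without the block (0.0206%) and 0 with it (0.714%), with 4 and 9 members at an unadjusted p under 0.05 (12.0% and 18.6% of all genes). Without sh004 sh1 day 7 the fit with the block called 6. In all 4 fits voom called 0. The differences at day 7 with the smallest adjusted p pointed in opposite directions: with the block, IRF9 was 0.81 ± 0.19 higher in sh003 (adjusted p = 0.0805), and the difference for IRF1, sh003 minus sh004, was -1.06 ± 0.27 (adjusted p = 0.0928).

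In spheres, 10 members called by the test were lower in sh003 than in sh004 lines and 1 was higher, where 16.8% of all genes were called lower and 23.1% higher. The 10 include IFI35 and IFIH1, which needed the sh004 libraries to pass the filter and are not read as results. No member passed the test against the control sphere, a single library whose spread is taken from the other groups. Levels were recomputed with each library's own read total, because the deposited values divide each library's genes by 10 different totals in turn. The filter of 1 RPKM in 2 libraries passed 22 of the 39 members, 13 of them in all 5 libraries, and IFIH1 and IFI27 passed here although they did not in monolayers.

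For sh003 against sh004 spheres, limma called 11 of 22 members, where 39.9% of 14711 genes were called, so the count in both directions together lies near the background. Of the 11, 10 were lower in sh003 (16.8% of all genes) and 1, USP18, was higher (23.1%). IFI35 reached 1 RPKM in the sh004 libraries only, and IFIH1 in those and in sh003 sh1. Both therefore passed the filter through the group where they were high, and their calls are not read as results. The members' median was -0.79, beside 0.13 over all genes. The count was 0 without sh003 sh2 or without sh004 sh2, 2 without sh004 sh1, and 2 with the RPKM as deposited.

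IFITM3 was at 1.47 RPKM in the control sphere, 1.29 and 0.801 in sh003 sh1 and sh2, and 14.3 and 10.5 in sh004 sh1 and sh2. IFI6 was at 20.1, 29.4, 34.8, 78.5 and 96.6 RPKM in the same order, and IRF7 at 5.92, 8.01, 4.54, 20.6 and 21.3. In all 3 genes both sh004 libraries were above the other 3 libraries. In sh003 relative to sh004, IFITM3 was lower by 3.06 ± 0.28 (limma adjusted p = 0.00844), IFI6 by 1.43 ± 0.20 (adjusted p = 0.00875) and IRF7 by 1.71 ± 0.28 (adjusted p = 0.00977).

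IFI35 was at 0.144, 0.463, 0.146, 2.71 and 3.28 RPKM, and IFI44 at 1.91, 2.45, 1.52, 6.49 and 6.37. BST2 was at 1.31, 11.8, 2.32, 32.8 and 44.4 RPKM. In IFI44 and BST2 the sh004 libraries were again the highest, and in BST2 the 2 sh003 lines lay far apart. In sh003 relative to sh004, IFI44 was lower by 1.51 ± 0.27 (adjusted p = 0.0108) and BST2 by 2.72 ± 0.64 (adjusted p = 0.0210).

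IFITM2 was at 5.52, 5.595, 3.11, 15.7 and 9.58 RPKM, and UBE2L6 at 26.0, 37.4, 25.8, 56.2 and 65.5. IFIH1 was at 0.0284, 1.26, 0.191, 3.23 and 3.28 RPKM. In IFITM2 and UBE2L6, both sh004 libraries were above the other 3. IFITM2 and UBE2L6 were lower in sh003 than in sh004 by 1.44 ± 0.35 (adjusted p = 0.0219) and 0.95 ± 0.24 (adjusted p = 0.0241).

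ISG15 was at 3.77, 1.11, 3.19, 6.16 and 6.54 RPKM, lower in sh003 than in sh004 by 1.49 ± 0.40 (adjusted p = 0.0300). USP18 was at 5.61, 6.56, 15.4, 3.17 and 3.85 RPKM, and was higher in sh003 by 1.41 ± 0.39 (adjusted p = 0.0332). Its highest value lay in sh003 sh2, and both sh004 libraries were below the control sphere.

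Other named members did not pass. IRF1 was at 0.737, 6.87, 1.03, 9.77 and 8.02 RPKM, with sh003 sh1 close to the sh004 lines. PARP9 was at 0.614, 2.89, 1.77, 2.92 and 1.92, SAMD9L at 0.101, 1.45, 0.813, 1.47 and 1.63, and HERC6 at 1.12, 2.03, 1.75, 2.86 and 3.39. In these 4 genes the control sphere held the lowest value. IRF1, PARP9 and SAMD9L met the filter only with knockdown libraries, so their separation from control is not read as a result. STAT2 was at 17.8, 18.3, 16.5, 13.8 and 17.4, and IRF9 at 1.86, 1.00, 1.51, 1.26 and 0.811, with IRF9 highest in the control sphere. DDX58 was at 1.75, 4.46, 2.32, 4.26 and 5.36.

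Against the single control sphere, whose spread limma takes from the other groups, no member passed. For sh003, 0 of 22 were called (0.0% of all genes) and 4 had an unadjusted p under 0.05, as had 19.1% of all genes, with a median of 0.53. For sh004, 0 of 22 were called (0.129%), 15 had an unadjusted p under 0.05, as had 22.2% of all genes, 18 were higher, and the median was 1.22 beside -0.16 over all genes. Voom called 0 members in both. IFI35, IFIH1 and SAMD9L are among the 15 for sh004 and, with IFI27, among the 18. These genes needed the sh004 libraries to pass the filter. IRF1 and PARP9, among the 15 and the 18, and IFIT1, among the 18, were under 1 RPKM in the control sphere. They too passed only with knockdown libraries. PARP9 and SAMD9L are among the 4 for sh003. The differences with the smallest adjusted p for sh004 were IFI6 at 2.09 ± 0.25 (adjusted p = 0.0686) and IFITM3 at 2.69 ± 0.34 (adjusted p = 0.0689), and the largest was BST2 at 4.41 ± 0.79 (adjusted p = 0.102). With the RPKM as deposited, 3 members were called for sh004, and 1 and 2 were called without sh003 sh1 and sh003 sh2. Each sphere set against the control sphere had 6 members higher by 1 or more on the log2 scale for sh003 sh1 (5.78% of all genes), 4 for sh003 sh2 (8.13%), 15 for sh004 sh1 (7.21%) and 14 for sh004 sh2 (7.08%). All 4 use the same control library. IFIH1, IRF1, IFIT1, IFI35, PARP9 and SAMD9L were under 1 RPKM in it and met the filter only with knockdown libraries. Each of these genes is in at least 1 of the counts, so part of each count can come from the filter.

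TNFAIP3 was at 0.0410, 2.75, 0.0358, 4.08 and 2.61 RPKM in the control, sh003 and sh004 spheres, so sh003 sh1 stood with the sh004 lines, as it did for IRF1. Its part in the members' levels was not tested. The summed level of the leukocyte markers was 1.0 to 3.1 RPKM in spheres.

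**Figure D4:**
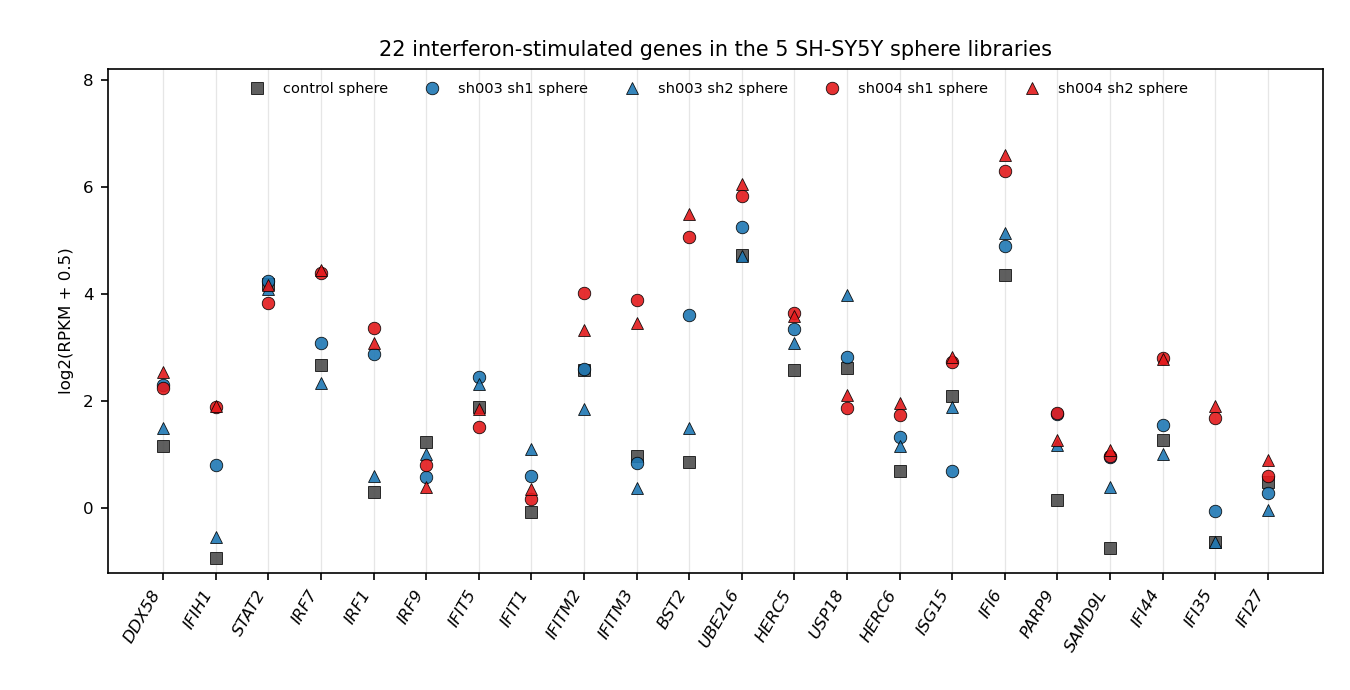
Level of the 22 members past the sphere filter, as log2(RPKM + 0.5) (vertical axis), in the control, 2 sh003 and 2 sh004 sphere libraries, with 1 column per gene. The sh004 points lie above the others for IFI6, IRF7, IFITM3 and BST2, and below them for USP18.

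In KELLY cells 13 members were at 1 RPKM or above in at least 1 library, and 0 of them moved by 1 or more on the log2 scale with the SOX9 siRNA, where 4.0% of all genes did. Of the 13, 11 were lower with the SOX9 siRNA, as were 43.5% of all genes, and the median log2 ratio was -0.25, beside 0.05 over all genes. The ratio of reads had a 95% interval (Clopper-Pearson, counting error only) that excluded 1 for 7 members, as it did for 57.6% of all genes, and 6 of the 7 were lower (24.4% of all genes). With 1 library a group these intervals compare the libraries and not the treatments.

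OAS3 was the most abundant member in KELLY, at 17.02 RPKM with control siRNA and 16.3 with SOX9 siRNA. IFI6 was at 16.6 and 13.9 (ratio 0.84, interval 0.72 to 0.98), and IFIT5 at 14.1 and 16.4 (ratio 1.17, interval 1.09 to 1.25). Among the 13 members at 1 RPKM or above, IFIT5 was the one with an interval above 1. IFIT2 was at 3.27 and 2.08 RPKM (ratio 0.63, interval 0.52 to 0.77), IFI27 at 1.48 and 0.87 (ratio 0.59, interval 0.45 to 0.77), and SAMD9 at 1.24 and 0.88 (ratio 0.71, interval 0.57 to 0.88). PARP14 was at 1.92 and 1.52 (ratio 0.79, interval 0.69 to 0.91) and ISG15 at 1.77 and 0.88 (ratio 0.50, interval 0.25 to 0.95). Of the same 13 members, those with intervals that include 1 were OAS1, BST2, STAT2, IFIT1, PARP9 and OAS3.

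Levels in the 2 cell lines come from separately normalized tables and are set side by side only for the 31 members that reached 1 RPKM in a library. Both KELLY libraries were above every one of the 20 SH-SY5Y libraries for 5 members (OAS1, OAS3, IFIT2, IFIT5 and PARP14), where 11.2% of all genes were, and below every one for 14 members, where 16.7% were, among them STAT2, IRF1, IRF7, IRF9, IFITM2, IFITM3, UBE2L6 and IFI44. OAS3 reached at most 0.128 RPKM in SH-SY5Y, against 17.02 and 16.3 in KELLY. STAT2 was at 2.5 and 2.17 RPKM in KELLY, against at least 11.4 in SH-SY5Y. No test is possible between lines that differ in table, medium and vector.

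**Figure D5:**
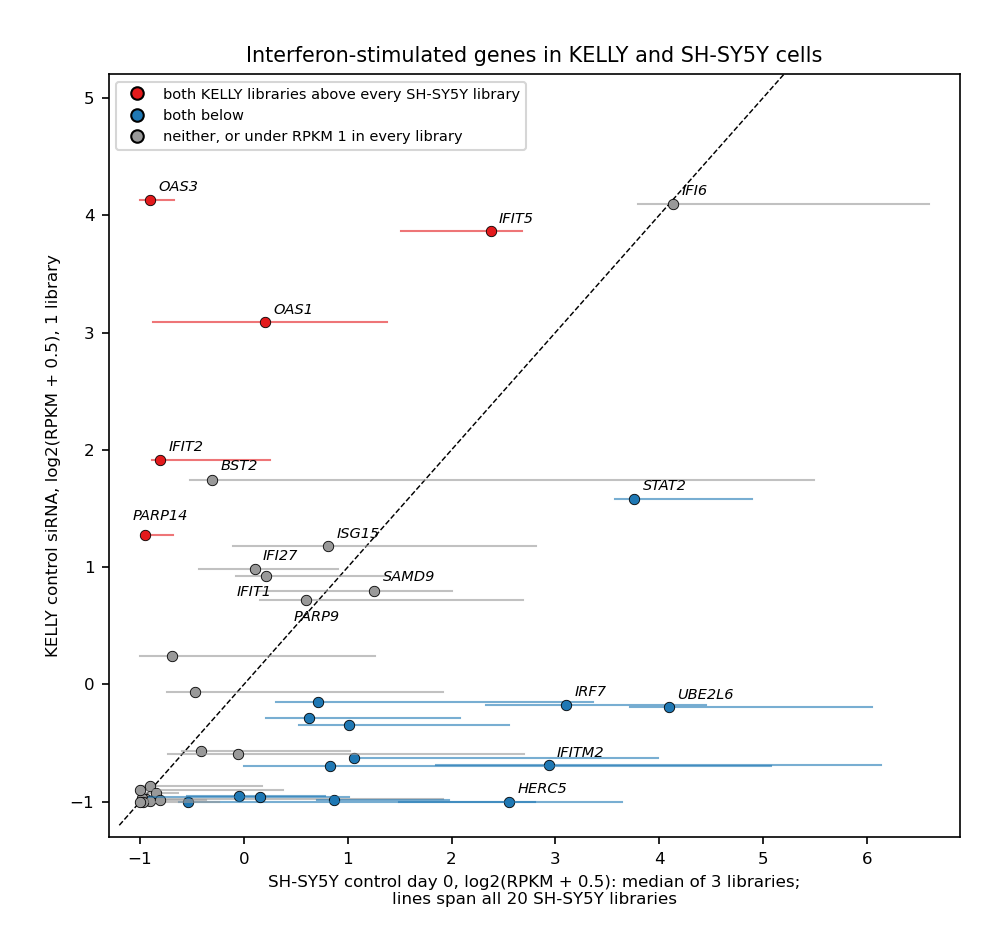
Level, as log2(RPKM + 0.5), of the members in KELLY with control siRNA (vertical axis) against the median of 3 control day 0 libraries of SH-SY5Y (horizontal axis), with a dashed line of equal levels and bars spanning all 20 SH-SY5Y libraries, red where both KELLY libraries lie above all of them and blue where both lie below. OAS3 lies farthest above and is red, and the 4 transcription factors are blue.

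Across the 15 monolayer libraries the 25 detected members varied together to different degrees. The median Pearson r over 300 pairs was 0.57, on the log2(RPKM + 0.5) scale, with a range from -0.57 to 0.95, and 280 pairs were above 0. Set against the mean of the other members, IFI44 had the highest r at 0.96, followed by BST2 at 0.94 and PARP9 at 0.92, and 18 members were above 0.5. HERC5 at 0.06 and ISG15 at 0.12 were the least like the rest. The libraries share batches, days and control lines, so these values describe the data and carry no test. The r of single members with TNFAIP3 ran from -0.20 for IRF9 to 0.71 for DDX58 and 0.77 for IRF1.

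Among the class I antigen presentation genes, HLA-C, HLA-E, TAP1, TAPBP, PSMB8 and PSMB9 had 0 reads in all 4 batch 1 libraries, so values that mix batches do not describe them. Among the members, OAS2, OAS3 and XAF1 also had 0 reads in all 4, and TRIM22 had 3 to 6 reads there against 69 to 229 in the other libraries. Whether batch 1 was aligned or counted in another way is not given in the sources used here.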

How the data were processed

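Total RNA was sequenced from SH-SY5Y monolayers, SH-SY5Y spheres and KELLY cells. The authors deposited 3 tables of RPKM per Ensembl gene with gene length, one for each set. Per the submitters' processing notes these involved TopHat, featureCounts, Subread and hg19. Per the labels' protocols, libraries were made with a stranded, ribosome-depleted kit, and the strand setting of the counting is not given in the sources used here. Multiplying RPKM by length returned whole reads (within 0.01) for 100% of values above 0. Sphere values had been divided by 10 totals in rotation, and 9.81% to 10.3% of each library's values used its own, so sphere RPKM was recomputed. Symbols were matched for 52181 gene IDs, and 0 columns of values were left unused.

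Genes at 1 RPKM or above in at least 2 libraries of a table (19461 in monolayers, 14711 in spheres) were fitted on log2(RPKM + 0.5) with limma 3.58.1 (trend, R 4.3.3) over all groups of the table, with Benjamini-Hochberg adjustment over all genes and a threshold of 0.05. Changes are on that scale, which understates those of low genes. Residual degrees of freedom were 9 without and 7 with the batch block, and 2 in spheres. Batch numbers are in the titles. Deviations from group means, in control and sh003 libraries, correlated between same-batch libraries (r = 0.716 to 0.942). Between batches r ran from -0.92 to 0.744. Control day 7 holds batches 1 and 2 only, so its deviations mirror each other and negative values are partly forced. Between batches 2 and 3 r was 0.536 to 0.744, which overlaps the same-batch range, so the check sets apart batch 1 only. The sh004 libraries were not part of it. Batch was taken to pair libraries and both fits are given. The first principal component (68.7%) separates batch 1. Scripts were tested on simulated data. Python 3.11.15 with numpy 2.4.6, pandas 2.3.3 and scipy 1.17.1 was used for summaries.

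Values in every library are printed for 14 members, by smallest adjusted p among those called in any fit. DDX58, ISG15, USP18 and IFIH1 also passed in a fit and are described for that reason. Members and lists were chosen with earlier results of these data known. Alternatives were other pseudocounts (0.1 and 1), no filter, median-ratio scaling, voom on recovered reads, fits on the compared groups only, batch 2 only, and leaving out single libraries, batch 3 or the libraries with contradicting tags. Some genes of the pathway lists are not reported here.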

Additional observations from a re-analysis of the deposited data

How the results depend on the processing

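Counts below are members called by limma. The number called from day 0 to day 7 changed with the batch term and with single libraries. In control cells 1 member was called, against 6 with the replicate block, 0 with median-ratio scaling, 0 when only the compared groups were fitted, 0 without the libraries with contradicting tags, 2 without batch 3 and 0 in batch 2 only. In sh003 cells 1 was called, against 12 with the block, 0 with only the compared groups, 0 without the contradicting tags, 5 without batch 3 and 0 in batch 2 only. In sh004 cells 0 were called, against 10 with the block and 6 without batch 3. With the block, voom called 3 in control cells, and leaving out the contradicting tags gave 5 in sh003 and 6 in sh004 cells. For sh004 against control at day 7, median-ratio scaling with the block called 1. In spheres, the RPKM as deposited gave 3 for sh004 against control and 2 for sh003 against sh004, which fell to 0 with no filter. 

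Leaving out 1 library at a time gave 0 to 1 in control and 0 to 3 in sh003 at day 7 against day 0 (3 without sh003 sh1 batch 3 day 0), and 0 to 1 in sh004. With the block the ranges were 0 to 11, 2 to 13 and 1 to 13. For sh003 against control with the block they were 0 to 1 at day 0 and 0 to 4 at day 7, for sh004 at day 7 0 to 3, and for sh003 against sh004 at day 7 0 to 6. In spheres they were 0 to 2 for sh004 against control and 0 to 11 for sh003 against sh004. Of the headline counts under an alternative, 450 stayed within 1.5 times and 67 moved. Other counts are not in this tally. The members' median for sh004 against control at day 0 turned from -0.16 to 0.13 with the block. No paired analysis was possible for spheres and KELLY because their labels carry no batch number. Fits with 1 control sphere rest on the spread of the other groups.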
